A study of Rattus norvegicus with 6 samples.

Results

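The miR-7 family was followed in AR42J cells through its 3 rat precursors, rno-mir-7a-1, rno-mir-7a-2 and rno-mir-7b, chosen by name among the 383 miRNA precursors with reads. Reads on these hairpins comprised 972 of 53526 distinct read sequences over all 6 libraries. AR42J is a rat pancreatic tumour line with exocrine, acinar features. Of the 6 libraries, 3 were made from untreated cells and 3 from cells kept for 30 min in 200 µM sodium taurocholate, a bile salt used to model biliary pancreatitis. The line is the same in both groups. No label states how the replicates were separated, so every p-value below reflects spread among libraries that may be purely technical. Before library preparation the RNA was deacylated, its ends were repaired and m1A and m3C were demethylated, in both groups.

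miR-7 is one of the most conserved animal miRNAs and is known for its high level in neuroendocrine cells, pituitary and pancreatic islets. A hairpin is cut by Drosha and then Dicer into a 5p and a 3p strand, and the strand kept by Argonaute pairs with mRNAs through its seed, bases 2 to 8. In brain, miR-7 takes part in a circuit with the circular RNA Cdr1as, which binds it, the long noncoding RNA Cyrano, which directs its degradation, and miR-671, which directs cleavage of Cdr1as.

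The hairpins are shown because their 5p strands are nearly the same while their flanks and 3p arms tell them apart. The sequences are from RefSeq on GRCr8, 5′ to 3′, with the annotated mature strands in capitals. On this annotation rno-mir-7a-1 (chr17:6278692-6278788, plus strand) lies within the gene Hnrnpk, rno-mir-7a-2 (chr1:142215800-142215894, plus strand) within the lncRNA LOC120099863, and rno-mir-7b (chr9:1167436-1167545, plus strand) within the span of the pseudogene Rpl35l3.
rno-mir-7a-1: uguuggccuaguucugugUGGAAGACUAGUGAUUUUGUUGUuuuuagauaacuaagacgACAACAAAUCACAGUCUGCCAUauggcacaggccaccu
rno-mir-7a-2: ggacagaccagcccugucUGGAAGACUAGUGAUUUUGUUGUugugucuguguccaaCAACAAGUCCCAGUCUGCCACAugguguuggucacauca
rno-mir-7b: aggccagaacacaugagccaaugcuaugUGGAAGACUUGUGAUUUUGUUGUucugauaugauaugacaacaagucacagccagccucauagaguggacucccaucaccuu

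The mature strands follow, with the seed in capitals, to show which of them can share targets.
rno-miR-7a-5p: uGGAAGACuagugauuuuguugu
rno-miR-7b: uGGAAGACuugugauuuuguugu
rno-miR-7a-1-3p: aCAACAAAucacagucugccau
rno-miR-7a-2-3p: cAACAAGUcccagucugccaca
The seed GGAAGAC was held by 2 of the 693 rat mature names in RefSeq, miR-7a-5p and miR-7b. Their mature sequences differ by A10T, with the miR-7a base first and positions counted from 1 at the 5′ end.

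Reads on miRNA precursors numbered from 2791878 to 3987307 per library. The library taurocholate 1 stood apart at the 3′ ends of reads. In it 22.11% of all miRNA reads ended in a G that did not match the precursor, against 5.321% in untreated 1 and 1.203 to 1.898% in the other 4. Several results on read ends are therefore given with and without it. Of the acinar markers, miR-148a-3p was at 381000 ± 36240 CPM (reads scaled to an equal miRNA total per library; mean ± SD, n = 3) untreated and 335900 ± 63270 with taurocholate, whereas miR-216a, miR-216b and miR-217, the miRNAs that define acinar tissue, had means below 1 CPM in both groups. The muscle and stroma list summed to 11880 to 17000 CPM over the 6 libraries, led by miR-143-3p at 12290 ± 954.7 CPM untreated and 11300 ± 1651 with taurocholate (SD, n = 3). The blood list summed to 1946 to 3850 CPM, and within it miR-451-5p varied from 32.53 to 1148 CPM between libraries. miR-122, the liver list, summed to 6.877 to 26.71 CPM. The part of these lists in the miR-7 results was not tested.

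miR-7a-5p, the strand shared by rno-mir-7a-1 and rno-mir-7a-2, was the third most abundant miRNA in all 6 libraries. It was at 54910, 59650 and 58630 CPM in untreated 1, 2 and 3 and at 54640, 41190 and 49470 CPM in taurocholate 1, 2 and 3. The groups did not overlap, but untreated 1 and taurocholate 1 were almost equal. Means were 57730 ± 2496 and 48430 ± 6786 CPM (SD, n = 3 each). The log2 fold change was -0.26 (SE 0.09; edgeR quasi-likelihood test, adjusted p = 0.233), so the difference did not pass the test. On error-free reads alone the log2 fold change was -0.42 (edgeR, adjusted p = 0.134). That filter also drops reads with a mismatched last base, which were 40.22% of miR-7a-5p reads in taurocholate 1 and 20.95 to 22.32% in the other libraries. How far the larger value rests on this was not tested. In this bulk RNA a lower level per cell and fewer cells carrying the miRNA cannot be told apart. The CPM values are also shares of the miRNA total, so they move when other abundant miRNAs change.

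miR-7b-5p was far below miR-7a-5p. It was counted 192, 260 and 224 times in the untreated libraries and 193, 169 and 178 times in the taurocholate libraries. These were 69.33 ± 9.54 and 50.45 ± 6.642 CPM (SD, n = 3), again without overlap, and the log2 fold change was -0.45 (SE 0.15; edgeR, adjusted p = 0.221). Reads that fitted miR-7a-5p and miR-7b-5p equally well, as when the base that differs was read as neither, were at 204.5, 278.6 and 263.3 CPM untreated and 151, 168.2 and 191.9 CPM with taurocholate. Their log2 fold change was -0.52 (SE 0.19; edgeR, adjusted p = 0.233).

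miR-7a-1-3p, the passenger strand of the Hnrnpk hairpin, was counted 42, 61 and 52 times in the untreated libraries and 72, 54 and 74 times in the taurocholate libraries. The groups overlapped at 15.87 ± 2.522 and 18.72 ± 3.889 CPM (SD, n = 3; log2 fold change 0.23, SE 0.16; edgeR, adjusted p = 0.499). On error-free reads the log2 fold change was 0.49 (edgeR, adjusted p = 0.289). miR-7a-2-3p had 1 or 2 reads in each library, 7 in all, and did not pass the filter on low counts. rno-mir-7b gave 0 of the 362 miR-7 3p reads, with an exact 95% upper limit of 1.014% for its share, for counting error only (3 reads would be 0.829%).

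Over all 348 miRNA features tested, 0 were called at an adjusted p under 0.05 by edgeR (0%), while 60 had an unadjusted p under that threshold (17.2%), 30 higher (8.62%) and 30 lower (8.62%) in taurocholate. DESeq2 called 10 (2.87%), none of them from miR-7. CPM groups did not overlap for 26 features lower in taurocholate (7.47%) and 21 higher (6.03%). The 3 miR-7 5p features were among the 30 and the 26 that were lower, and since their sequences are nearly identical they are not independent of each other. Fold changes of the 4 miR-7 features tested were -0.26, -0.45, -0.52 and 0.23 on the log2 scale, beside a median of 0.02 over all 348.

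**Figure D1:**
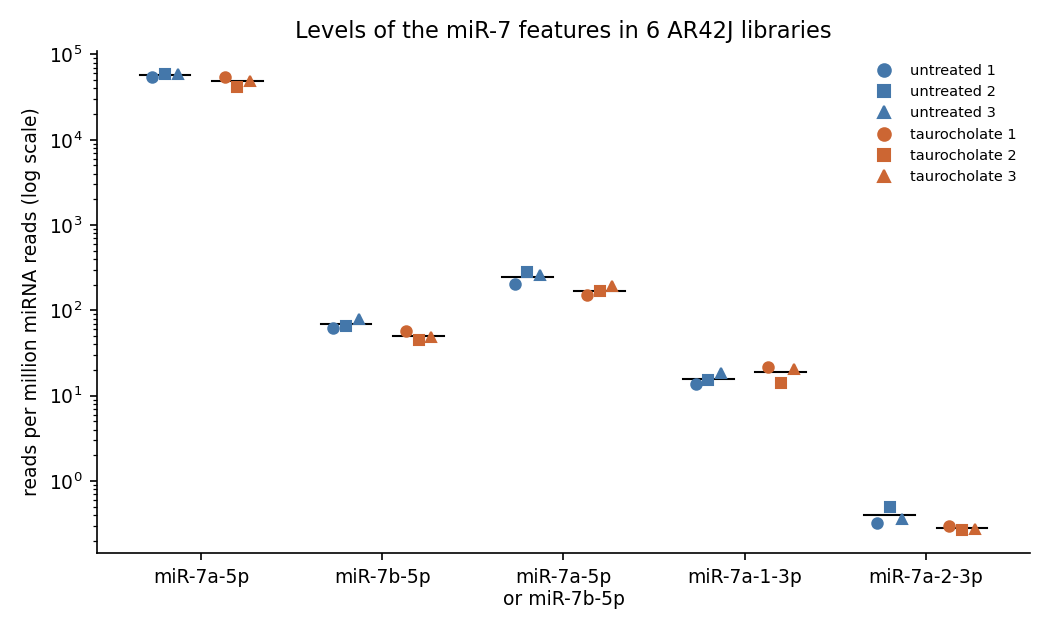
CPM (log axis) for the miR-7 features in each library; circles, squares and triangles are replicates 1, 2 and 3 and black lines are group means. miR-7b-3p, with 0 reads, is not drawn. miR-7a-5p lies between 41190 and 59650, miR-7a-1-3p between 13.68 and 21.53, and miR-7a-2-3p below 1.

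The reads called miR-7b were set against the rate of sequence errors in miR-7a, since a miscalled A10T turns a miR-7a read into a miR-7b read. The most frequent miR-7b read, with the distinguishing base in capitals, had 595 reads over the 6 libraries.
miR-7b read: tggaagactTgtgattttgttgtt
Reads from the usual start with A10T as their only difference from miR-7a numbered 139, 179 and 149 untreated and 105, 125 and 117 with taurocholate. The same A-to-T change at the 4 other A positions compared averaged 99.25, 109 and 85.75 reads untreated and 67.75, 76 and 85.25 with taurocholate. A10T therefore exceeded the mean of the other positions in 6 of 6 libraries, by 1.372 to 1.738 times. A two-sided exact sign-flip test over libraries gave p = 0.031, the smallest it can give. That test measures constancy over libraries and not the spread among positions, so it cannot tell whether A10T lies above the error level. A10T also exceeded the highest of the other positions in each library. Summed over libraries, 814 A10T reads stood beside a mean of 523 reads at the other positions, a ratio of 1.556. Those 4 positions ranged from 402 to 645 reads. How far the miR-7b values above rest on miscalled miR-7a reads was not tested. miR-7b made up 0.1194% ± 0.01464 of miR-7 5p reads untreated and 0.1039% ± 0.00491 with taurocholate (SD, n = 3), and without untreated 3 the difference shrank from -0.01545 to -0.007098 percentage points.

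Reads that differ between rno-mir-7a-1 and rno-mir-7a-2 pointed to different hairpins, depending on the kind of read. On the 3p arm, 355 of 362 reads were from rno-mir-7a-1 (98.07%, exact 95% interval 96.06 to 99.22) and 7 from rno-mir-7a-2 (1.934%, 0.7809 to 3.943). The share of rno-mir-7a-1 was 97.67, 96.83 and 98.11% untreated and 98.63, 98.18 and 98.67% with taurocholate. These values do not overlap, yet each library's share rests on 1 or 2 reads of rno-mir-7a-2 and a difference was not detectable at this depth. The most frequent 3p read of each, with its seed in capitals, had 147 and 4 reads.
7a-1-3p read: cAACAAATcacagtctgccata
7a-2-3p read: cAACAAGTcccagtctgccaca

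5p reads that begin before the usual start carry bases of the flank, which the hairpins do not share. Without a mismatch, 300 such reads fitted rno-mir-7a-2 and 0 fitted rno-mir-7a-1 or rno-mir-7b. They numbered 32, 68 and 56 untreated and 41, 47 and 56 with taurocholate, and the groups overlapped. The leading forms had 213 and 17 reads, with the extra bases in capitals.
5p read, 1 base early: Ctggaagactagtgattttgttgtt
5p read, 2 bases early: TCtggaagactagtgattttgttgtt
Each extra base moves the seed, to UGGAAGA in the first read and CUGGAAG in the second. Among all reads in the miR-7a-5p window these early starts were rare: 459 began 1 base early and 24 began 2 bases early, mismatched reads included, whereas 99.88% began at the usual base.

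Past position 24 the miR-7a hairpins differ in sequence, so long reads tell them apart. Reads of 26 nt or more that matched without error numbered 400 from rno-mir-7a-1 and 80 from rno-mir-7a-2, so that rno-mir-7a-2 held 16.67% (exact 95% interval 13.44 to 20.31). The main forms had 363 and 76 reads, with the bases past position 24 in capitals.
26-nt read of rno-mir-7a-1: tggaagactagtgattttgttgttTT
26-nt read of rno-mir-7a-2: tggaagactagtgattttgttgttGT
At 25 nt the counts were 7967 for rno-mir-7a-1 and 1035 for rno-mir-7a-2, but 687 of the latter came from taurocholate 1, the library rich in mismatched final G. A final T copied from the hairpin and one added later cannot be told apart in these reads. Of the 25-nt reads with any last base, 19.19, 24.79 and 24.19% untreated and 24.59, 32.48 and 32.84% with taurocholate ended in an A that no miR-7a hairpin holds there, and the groups overlapped (exact permutation p = 0.2). This share was not a planned measure and was picked with its values already known. The overlap is between taurocholate 1 and untreated 2 alone. Leaving out each library in turn, the difference ran from 5.48 to 9.938 percentage points, beside 7.247 with every library. The largest value was without taurocholate 1, where the groups lay apart (exact permutation p = 0.1). The share was higher with taurocholate in 3 of 3 same-numbered pairs. For 3 pairs an exact sign-flip test cannot go below p = 0.25.

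Offset RNA, a short RNA that lies directly 5′ of the mature strand, came from rno-mir-7a-1 alone among the 3 hairpins, with 348 reads against 0 from rno-mir-7a-2 and 0 from rno-mir-7b. For rno-mir-7a-2 the exact 95% interval of the share of these reads reaches 1.054%. Of the 348 reads, 323 ended exactly at the base before the mature start. Its most frequent read had 184 counts.
7a-1 offset RNA: atgttggcctagttctgtg
By library there were 35, 55 and 38 reads untreated and 86, 63 and 71 with taurocholate, or 11.4, 13.79 and 13.61 against 25.72, 16.66 and 19.52 CPM. All taurocholate libraries lay above all untreated ones (12.93 ± 1.333 and 20.64 ± 4.631, SD, n = 3; two-sided exact permutation test p = 0.1, the smallest that 3 against 3 allow). The measure was chosen after its values were seen. The other 41 precursors with offset RNA together gave 101.6, 128.4 and 137.5 CPM untreated and 240.2, 126.7 and 154.2 with taurocholate, which overlap (exact permutation p = 0.3). By reads, the offset RNA of rno-mir-7a-1 ranked 4, after those of rno-mir-21, rno-mir-15b and rno-mir-125a, and its sum of 348 was close to the 355 reads of its own 3p strand.

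**Figure D2:**
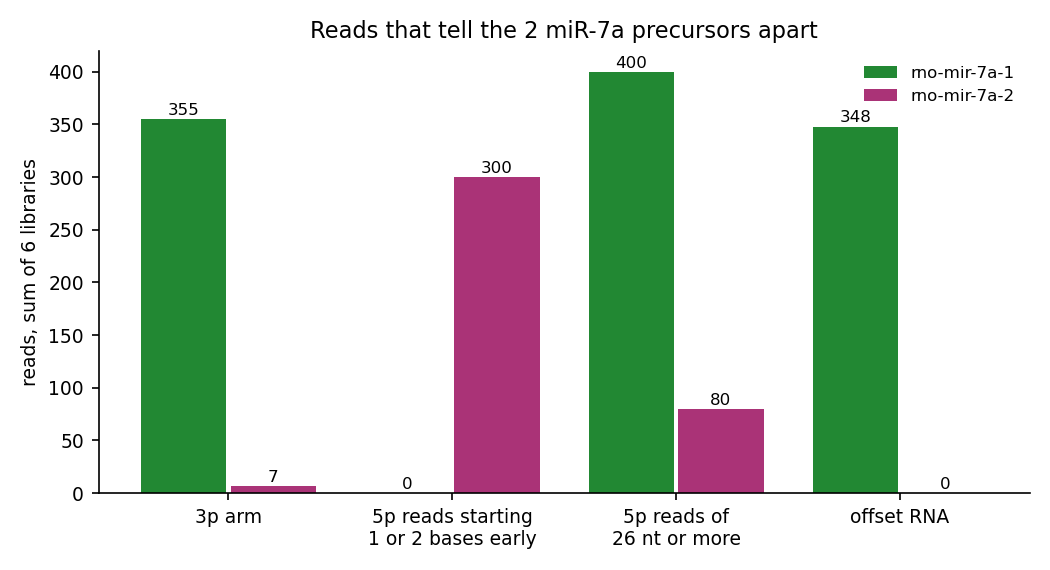
Reads summed over the 6 libraries that match rno-mir-7a-1 (green) or rno-mir-7a-2 (purple) but not both, by kind of read. The 3p arm (355 and 7) and offset RNA (348 and 0) are nearly all rno-mir-7a-1, early 5p starts are all rno-mir-7a-2 (0 and 300), and long 5p reads lie between (400 and 80).

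**Figure D3:**
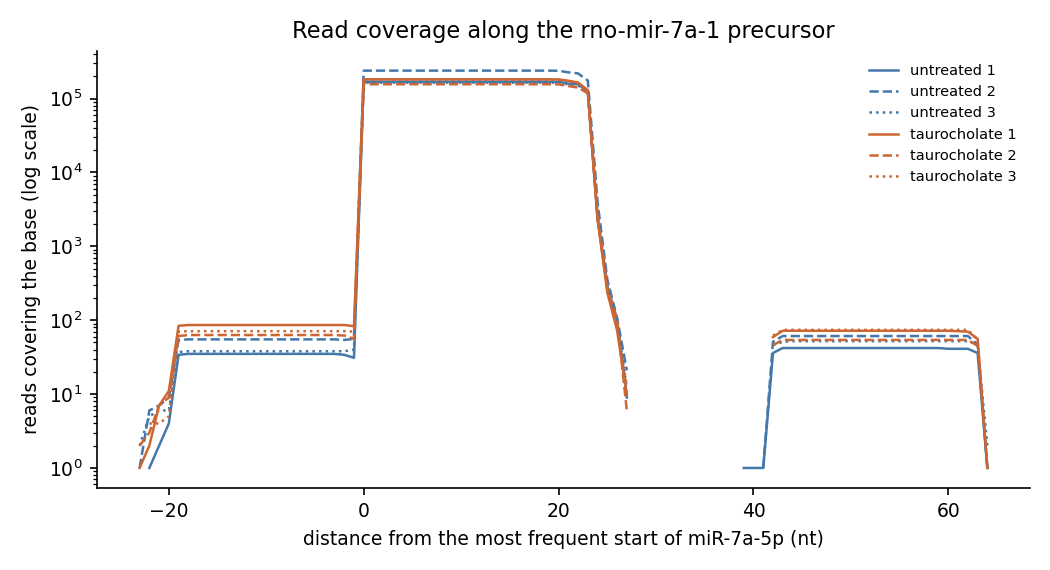
Reads covering each base of the rno-mir-7a-1 precursor (log axis) by distance from the usual 5p start, 1 line per library; bases with 0 reads are blank. The 5p block includes reads that rno-mir-7a-2 could also have given. The offset RNA lies directly left of the 5p strand, and the 3p strand, at a similar height, follows after a loop without reads.

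The 3p strand of rno-mir-7a-1 did not begin where RefSeq annotates it. Of 355 reads, 298 (83.94%) began 1 base after the annotated start, 54 (15.21%) began 2 bases after it and 1 began at it. The shift changes the seed from CAACAAA, shared in RefSeq with rno-miR-3065-5p, to AACAAAU, which 0 of the 693 mature names hold. The start 1 base later led in every library, with 35, 50 and 46 reads untreated and 59, 46 and 62 with taurocholate. A mismatched T closed 58 of the 355 reads (16.34%), with 33.33, 14.75 and 17.31% untreated and 13.89, 11.11 and 13.51% with taurocholate, each share resting on 6 to 14 reads.

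The hairpins strongly favoured the 5p strand. The log2 ratio of 5p to 3p reads was 11.94, 11.89 and 11.6 untreated and 11.29, 11.47 and 11.23 with taurocholate, so the ratio was lower in all taurocholate libraries (11.81 ± 0.18 and 11.33 ± 0.12, SD, n = 3; exact permutation p = 0.1, the smallest possible). The difference in log2 ratio was -0.48, and -0.94 on error-free reads. The error-free value leaves out reads with a mismatched last base, 40.22% of miR-7a-5p reads in taurocholate 1, and the part of that filter was not tested. The minor arm held 0.03354% of miR-7a reads on average, against a median of 0.6534% over 57 other miRNA families with a feature of at least 1000 CPM, and it was lower in 6 of 6 libraries (exact sign-flip p = 0.031, adjusted p = 0.0365 over 7 measures). From the highest share, miR-7a ranked 51 of 58. The median minor-arm share of the other families also rose without overlap, from 0.5287, 0.5323 and 0.6243% untreated to 0.9129, 0.6482 and 0.6737% with taurocholate. The change of miR-7a relative to that median was 0.08 on the log2 scale (exact permutation p = 0.7), and the groups overlapped.

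Most miR-7a-5p reads were 24 nt long, 1 base longer than the RefSeq form. The share of 24-nt reads was 71.86% ± 0.9292 untreated and 70.96% ± 2.372 with taurocholate (SD, n = 3), and that of 23-nt reads 18.22% ± 0.6053 and 17.51% ± 2.328. Both overlapped between the groups (exact permutation p = 0.6 and p = 1). The 24-nt difference of -0.8991 percentage points was -0.2024 without taurocholate 1, -0.2262 without taurocholate 3, -0.3686 without untreated 1 and -2.269 without taurocholate 2, where the groups lay apart (exact permutation p = 0.1). Against 59 other miRNAs of at least 1000 CPM, miR-7a-5p was long: its reads averaged 23.6 nt and the median of the others 21.92 nt, with miR-7a-5p longer in 6 of 6 libraries (exact sign-flip p = 0.031, adjusted p = 0.0365) and rank 4 of 60 from the longest. Its start was also sharper than the median, with 99.85% of reads from the most frequent start against 99.46% (6 of 6 libraries higher, exact sign-flip p = 0.031, adjusted p = 0.0365), rank 13 of 60. The sign-flip tests against other miRNAs, here and for the minor arm and the last bases, measure constancy over libraries. They do not measure the spread among miRNAs, for which the ranks are given.

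The 22-nt form was the length that separated the groups. It made up 2.413, 3.031 and 3.05% of miR-7a-5p reads untreated and 5.243, 4.158 and 4.735% with taurocholate. All taurocholate libraries lay above all untreated ones (2.831% ± 0.3626 and 4.712% ± 0.5427, SD, n = 3; exact permutation p = 0.1, the smallest possible, adjusted p = 0.214 over 15 measures), and without taurocholate 1 the difference was 1.615 percentage points in place of 1.881. Error-free 22-nt reads accounted for most of it, at 1.563, 2.069 and 1.995% untreated and 3.481, 2.87 and 3.26% with taurocholate. Base 22 is a G, so a final G copied from the hairpin and one added later cannot be told apart in these reads. The highest value was that of taurocholate 1, the library rich in mismatched final G. The 22-nt reads with a mismatched last A overlapped, at 0.4516 to 0.629% and 0.6177 to 0.9338%. Reads of 21 nt, 4.979% ± 0.2089 and 4.622% ± 0.6703, overlapped as well. Mean read length of the other miRNAs, as their median, fell by 0.09863 nt with taurocholate, without overlap. miR-7a-5p exceeded it by 1.638, 1.653 and 1.63 nt untreated and by 1.714, 1.729 and 1.718 nt with taurocholate (exact permutation p = 0.1, adjusted p = 0.35 over 7 measures).

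**Figure D4:**
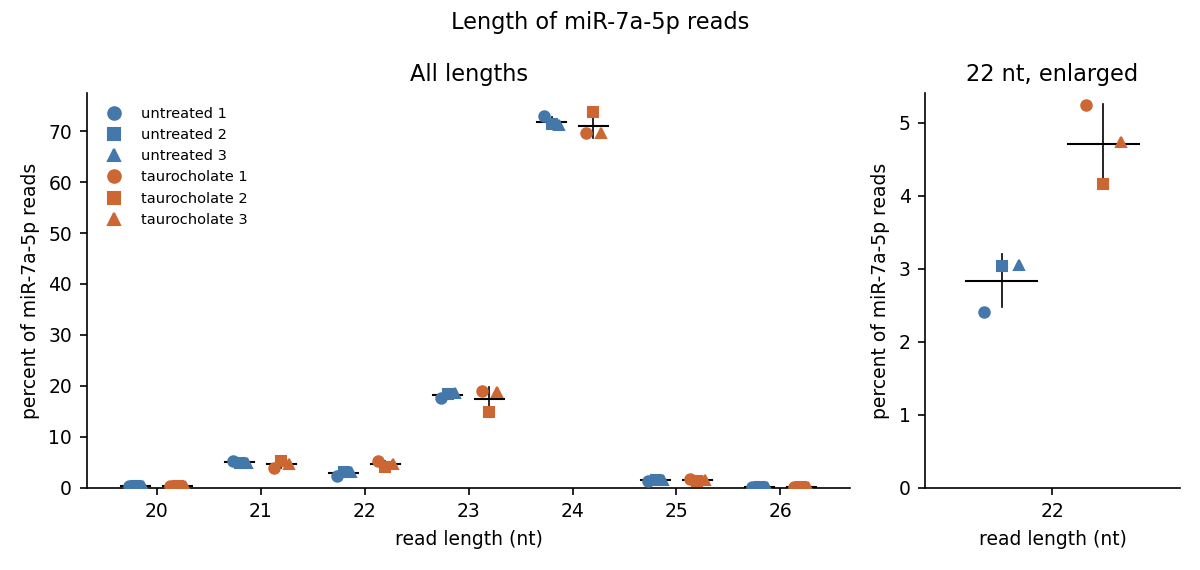
Share of miR-7a-5p reads at each length from 20 to 26 nt by library, with group means and SD in black; the right panel enlarges 22 nt. Taurocholate libraries at 22 nt lie between 4.158 and 5.243%, all above the untreated range of 2.413 to 3.05%.

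The 6 most abundant 5p reads show what the last bases looked like, with the seed in capitals.
5p read 1: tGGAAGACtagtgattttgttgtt
5p read 2: tGGAAGACtagtgattttgttgt
5p read 3: tGGAAGACtagtgattttgttgtc
5p read 4: tGGAAGACtagtgattttgttgtg
5p read 5: tGGAAGACtagtgattttgttgta
5p read 6: tGGAAGACtagtgattttgtt
Read 1, templated by both miR-7a hairpins, held 49.52, 50.34 and 49.32% untreated and 36.2, 52.19 and 47.84% with taurocholate, with taurocholate 1 alone far below the rest. Read 2 held 9.455 to 13.18% and read 6 held 2.108 to 3.751% over the 6 libraries. Reads 3, 4 and 5 carry T24C, T24G and T24A. Read 4 was 19.21% in taurocholate 1 and 3.7% in untreated 1, but 0.8262 to 1.472% in the other 4 libraries.

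A mismatched last base was found in 21.76% ± 0.4708 of miR-7a-5p reads untreated and 27.83% ± 10.75 with taurocholate (SD, n = 3). The second value rests on taurocholate 1, at 40.22%, and without it the difference was -0.1212 percentage points. The makeup of these ends differed by base. A mismatched last A closed 5.194, 5.982 and 6.509% of reads untreated and 7.297, 8.383 and 9.057% with taurocholate, without overlap (exact permutation p = 0.1, the smallest possible). Without taurocholate 1 that difference was 2.825 percentage points in place of 2.351. A mismatched last C went the other way, at 11.77, 14.59 and 13.29% untreated and 6.677, 10.83 and 11.09% with taurocholate (exact permutation p = 0.1), a difference of -3.681 percentage points, or -2.252 without taurocholate 1. These shares by base were chosen after the data were seen.

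The other miRNAs had the same direction of difference for both bases, without overlap for C and with overlap for A. Over 59 of them the median share of a mismatched last A was 7.587, 9.489 and 9.467% untreated and 8.837, 11.21 and 11.78% with taurocholate, which overlap (exact permutation p = 0.3). That of a last C was 8.266, 8.969 and 8.711% against 3.987, 5.898 and 6.019% (exact permutation p = 0.1). Relative to these medians the change in miR-7a-5p was 0.594 percentage points for A (exact permutation p = 0.4) and -0.3262 for C (p = 0.7, same exact test), and both overlapped between the groups. Within same-numbered pairs the relative change was positive in 3 of 3 for A (0.853, 0.685 and 0.244 percentage points) and in 1 of 3 for C. An exact sign-flip test over 3 pairs cannot go below p = 0.25. The share with any mismatched last base was 24.75% in miR-7a-5p and 30.52% in the median of the others, higher in miR-7a-5p in 1 of 6 libraries, taurocholate 1, which did not pass (exact sign-flip p = 0.0625, adjusted p = 0.0625). At 21, 23, 24 and 25 nt a miR-7a hairpin holds a T, so 0 reads of these lengths had a mismatched last T. An added T there is not counted, and the comparison was not adjusted for the bases that each hairpin holds at its 3′ end. By base, in shares chosen after the data were seen, miR-7a-5p had less mismatched A than the median in 6 of 6 libraries. Mismatched C and mismatched G were each higher in 6 of 6 (exact sign-flip p = 0.031 for each base, adjusted p = 0.0365). From the highest share, miR-7a-5p ranked 44 of 60 for A, 11 of 60 for C and 8 of 60 for G. Whether these bases were added in the cell or arose in library preparation or sequencing was not tested.

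**Figure D5:**
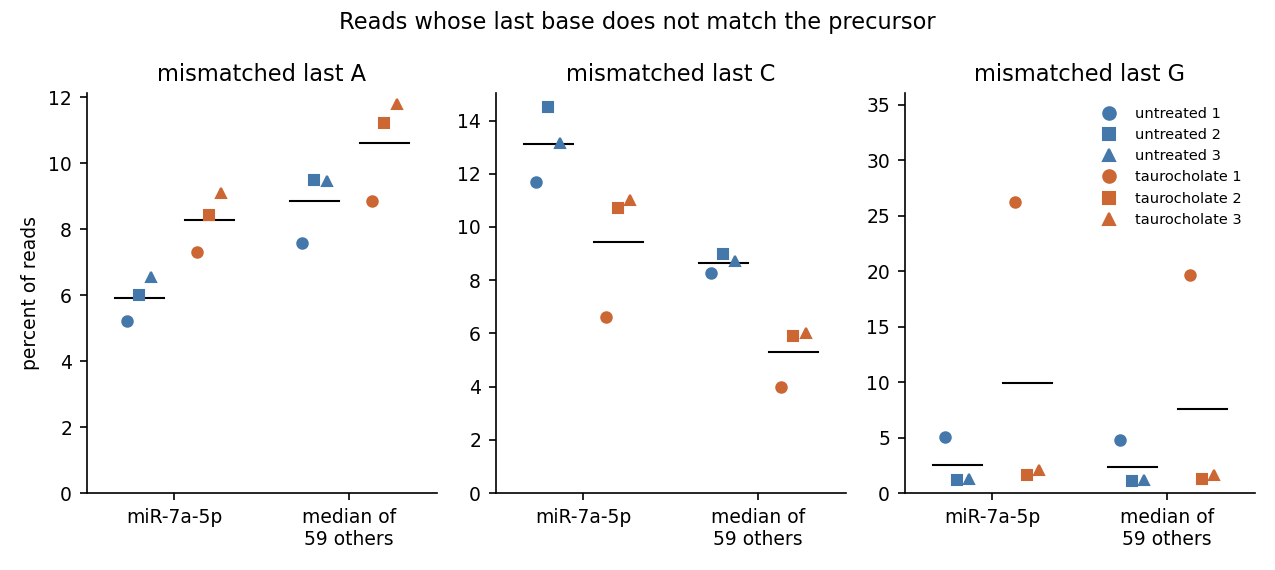
Percent of reads whose last base is an A, C or G that does not match the precursor, for miR-7a-5p and as the median of 59 other miRNAs, by library; black lines are group means. A is higher and C lower in taurocholate for miR-7a-5p, the medians of the others overlap for A and are lower without overlap for C, and the G panel is set by taurocholate 1 at 26.23% in miR-7a-5p.

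The features whose profile over the 6 libraries lay nearest to miR-7a-5p, among 143 with a mean of at least 100 CPM, were let-7f-5p, miR-22-3p, let-7g-5p, miR-145-3p and let-7i-5p. Their root mean square distances on centred log2 CPM were 0.0335, 0.0697, 0.0744, 0.0802 and 0.0863, against a median of 0.261 over all 143. Their log2 fold changes ran from -0.15 for let-7i-5p to -0.30 for miR-22-3p, a sign that their choice over the same libraries fixes, and none was called.

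Of the neuroendocrine miRNAs listed beside miR-7, 8 features were tested by edgeR, of which 3 had a higher and 5 a lower value in taurocholate and 0 were called, with a median log2 fold change of -0.11 beside 0.02 over all features. miR-9a-5p, a neural miRNA, was the most abundant of them. It was at 8730, 10580 and 10560 CPM untreated and at 21900, 11300 and 13940 CPM with taurocholate, without overlap and with taurocholate 1 far above the rest (edgeR, adjusted p = 0.195). miR-375-3p, the islet miRNA that often accompanies miR-7, had only 17.01 ± 21.22 and 47.41 ± 37.02 CPM and varied from 2.508 to 77.53 CPM between libraries. Both arms of miR-671, the Cdr1as-cleaving member of the circuit, had means below 1 CPM in each group and were not tested. The acinar list had 2 tested features, both from mir-148a, with lower values in taurocholate and 0 called.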

How the data were processed

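Small RNA libraries of 6 AR42J samples were analysed. The authors deposited, per the file headers, one line per read sequence and precursor alignment with its read count, position and mismatches; FastQC, cutadapt and Novoalign 2.07.11 are named in the submitters' processing notes, and the precursor set's release is not given in the sources used here. Reads were 16 to 28 nt with at most 1 mismatch per alignment. Each read sequence was counted once per library and given to the precursor family and arm it fitted best. Of 687 features, 348 passed edgeR's filter (filterByExpr) and were tested with edgeR 4.0.16 (TMM, quasi-likelihood, Benjamini-Hochberg) in R 4.3.3, with DESeq2 1.42.0 as an alternative. On simulated data with 40 of 348 features changed, 29.8% of 2-fold and 90.8% of 4-fold changes were recovered. Shares were compared by exact permutation over libraries, with Python 3.11.15 and SciPy 1.17.1. Deviations from the group means correlated at 0.279, 0.628 and 0.196 over features between same-numbered libraries. Between libraries of different number they correlated at -0.56 to 0.42, so the ranges overlapped. No label states a pairing. The numbers were treated as pairs only in an alternative with a replicate block and in the counts by pair. Alternatives also covered library totals, no filter, error-free reads, reads of at least 18 nt, a comparator minimum of 100 CPM and leaving out each library. Arm boundaries came from RefSeq hairpins for 279 of 383 precursors, from RefSeq lengths for 75 and from read spans for 29. The text names every miR-7 feature, the 6 leading 5p reads, the 5 nearest profiles and members of the marker lists. Members and lists were chosen with earlier results of these data known. PCR reads carry no molecular identifiers, so intervals cover counting error only. The tRNA alignments were not used here.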

Additional observations from a re-analysis of the deposited data

How the results depend on the processing

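Exact tests of 3 against 3 libraries cannot go below p = 0.1, so for the share measures only size and direction can be read across settings. With DESeq2, 10 features were called in place of 0; all other settings called 0. The replicate block changed no call: under it the log2 fold change of miR-7a-5p was -0.26 (adjusted p = 0.291, edgeR). Leaving out each library in turn, that fold change ran from -0.36 to -0.22. The share of miR-7a-5p reads from the usual start reversed to -0.004131 percentage points on error-free reads. Leaving out each library, the difference in 23-nt reads ran from -1.443 to 0.6348 (reversed without taurocholate 2), that in 24-nt reads from -2.269 to -0.2024, that in a mismatched last base from -0.1212 to 9.511 and that in a last G from -0.6849 to 11.59 (both reversed without taurocholate 1). The cause was not tested. With 5 libraries the exact sign-flip test cannot go below p = 0.0625, so without any 1 library the differences from other miRNAs no longer passed the threshold, with values of 0.3787 to 0.4056 percentage points for the start, 1.67 to 1.69 nt for length and -0.6432 to -0.5692 percentage points for the minor arm. Depth limits miR-7a-2-3p, at 1 or 2 reads per library.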
